A study of Mus musculus with 9 samples.

Results

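The genes described here encode enzymes that act on the uracils left in DNA by AID, the cytidine deaminase of activated B cells. They are Ung, Smug1, Apex1, Apex2, Msh6, Pms2 and Exo1, chosen by symbol from the deposited count table. All 7 were present among its 45361 identifiers, and all 7 were among the 12580 genes that passed the filter on low counts. The cells were CH12F3, a mouse B-lymphoma line that switches to IgA in culture, and all of them carried a Ligase4 knockout and were given anti-CD40 with IL-4 plus TGF-β for 24 h. One group of 3 libraries came from cells given tazemetostat and one group of 3 from cells given valemetostat, and the reference was 3 libraries of cells given DMSO, the solvent. Tazemetostat inhibits the histone methyltransferase EZH2, and valemetostat inhibits both EZH1 and EZH2. The labels do not say whether the libraries of a group came from separate cultures, so p-values measure the spread between these samples, which may be technical. A parental line with intact Ligase4 and unstimulated cells were not analysed here, and the doses are not stated in the labels.

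AID converts cytosine to uracil in immunoglobulin switch regions and variable genes, and the resulting uracil is read in either of a pair of ways. In base excision repair, UNG removes the uracil and an AP endonuclease (APEX1 or APEX2) cuts the strand at the abasic site. In mismatch repair, the MutSα complex, of which MSH6 is a subunit, recognises the mismatched base, the MutLα endonuclease, of which PMS2 is a subunit, nicks the DNA, and the exonuclease EXO1 widens the gap. Both routes supply DNA breaks for class switch recombination and mutations for antibody diversification, and non-homologous end joining, which uses DNA ligase IV, then joins the breaks.

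The 4 members that fell with both inhibitors were Ung, Msh6, Pms2 and Exo1, and the proximal promoters of Ung, Msh6 and Pms2 are shown beside that of Apex1, a member that was not called with either drug, so that the letters around their start sites can be compared. The sequences are RefSeq's, on GRCm38.p6, from 250 bases before the start to 50 after it, 5′ to 3′ on the gene's strand, and the entries matched 5 of the 7 members (Ung, Apex1, Msh6, Pms2 and Smug1, not Exo1 or Apex2). Capitals mark 3 motifs searched on both strands. The first was an E2F-type core, spelled TTCCCGC. The second was the CCAAT box, whose letters are its name. The third was the GC box, spelled GGGCGG, and overlapping matches were each counted, as for 3 GC boxes of Msh6 that share end bases.
Ung, chr5:114130185-114130484, plus strand: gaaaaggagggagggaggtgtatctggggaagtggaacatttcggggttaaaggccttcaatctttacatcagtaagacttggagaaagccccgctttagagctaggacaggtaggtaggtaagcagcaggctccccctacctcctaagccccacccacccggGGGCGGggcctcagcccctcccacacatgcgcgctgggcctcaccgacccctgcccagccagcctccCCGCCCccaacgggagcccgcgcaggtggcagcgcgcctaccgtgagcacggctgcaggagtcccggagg
Msh6, chr17:87974800-87975099, plus strand: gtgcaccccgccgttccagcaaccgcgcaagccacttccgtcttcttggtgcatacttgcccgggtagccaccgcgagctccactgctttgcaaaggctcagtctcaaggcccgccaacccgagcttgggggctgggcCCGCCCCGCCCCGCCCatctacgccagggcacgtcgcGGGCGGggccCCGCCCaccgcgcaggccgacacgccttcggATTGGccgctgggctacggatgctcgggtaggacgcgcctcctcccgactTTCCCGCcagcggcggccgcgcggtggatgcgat
Pms2, chr5:143909751-143910050, plus strand: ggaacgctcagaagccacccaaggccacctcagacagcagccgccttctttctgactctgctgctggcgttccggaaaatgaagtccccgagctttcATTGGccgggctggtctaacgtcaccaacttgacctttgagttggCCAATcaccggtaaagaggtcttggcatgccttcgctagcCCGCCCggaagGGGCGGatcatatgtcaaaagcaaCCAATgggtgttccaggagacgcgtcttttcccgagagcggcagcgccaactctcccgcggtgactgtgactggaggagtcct
Apex1, chr14:50924699-50924998, plus strand: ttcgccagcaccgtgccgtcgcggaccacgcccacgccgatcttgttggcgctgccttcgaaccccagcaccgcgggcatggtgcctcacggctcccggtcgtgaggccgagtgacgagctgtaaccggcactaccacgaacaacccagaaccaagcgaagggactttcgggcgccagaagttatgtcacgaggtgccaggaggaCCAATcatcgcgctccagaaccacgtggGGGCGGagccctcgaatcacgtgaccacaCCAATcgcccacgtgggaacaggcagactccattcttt

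The Msh6 window held 37 CpG dinucleotides, 1 E2F-type core, 1 CCAAT box and 5 GC boxes. The Ung window held 16 CpG dinucleotides and 2 GC boxes. The Pms2 window held 19 CpG dinucleotides, 3 CCAAT boxes and 2 GC boxes. The window of Apex1 held 31 CpG dinucleotides, 2 CCAAT boxes and 1 GC box. Smug1, which is not printed, had 15 CpG dinucleotides, 1 CCAAT box and 1 GC box. All 5 windows exceeded the median of 7 CpG dinucleotides over 32851 RefSeq promoters. A GC box was found in 5 of 5 members and in 35.7% of all promoters, a CCAAT box in 4 of 5 and 37.4%, and the E2F-type core in 1 of 5 and 4.6%. No motif was shared by Ung, Msh6 and Pms2 and absent from Apex1. The GC box was in all of them, the CCAAT box was missing in Ung and present in Apex1, and the E2F-type core was in Msh6 alone among these 5. Exo1, also called, had no entry, and so few windows cannot decide whether called and uncalled members differ in promoter sequence. A match is a string of letters and not a measured binding site.

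Counts are given as CPM (counts scaled to a common TMM-adjusted library total), and a log2 difference is the inhibitor minus DMSO from edgeR's quasi-likelihood fit over all 9 libraries, with its standard error and a Benjamini-Hochberg adjusted p over all tested genes. A gene was called at an adjusted p under 0.05. The libraries held between 34080504 and 46675110 counts, and 3 counts are worth 0.0643 to 0.088 CPM, below every value of a member. Log2 CPM correlated at 0.988 to 0.991 between libraries of a group, at 0.987 to 0.989 between the inhibitors and at 0.965 to 0.969 between an inhibitor and DMSO. Summed TPM of 6 B cell markers (Cd79a, Cd79b, Ms4a1, Pax5, Cd22 and Ighm, none at 0) was 2561 to 2615 with tazemetostat, 2674 to 2785 with valemetostat and 2241 to 2471 with DMSO, higher with both inhibitors without overlap, and its part in the members' differences was not tested. The summed TPM of 5 T cell markers did not exceed 8.43, that of 4 myeloid markers ran from 11.6 to 16.1 over the 9 libraries, and that of 4 stromal and endothelial markers did not exceed 1.31, with Col1a2 at 0. The knockout target Lig4 had 21 to 59 counts with tazemetostat, 31 to 46 with valemetostat and 29 to 39 with DMSO, and since the deleted part of the gene is not given, these counts check nothing about the knockout.

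Tazemetostat lowered 4 of the 7 members against DMSO: the uracil glycosylase gene Ung, the mismatch recognition gene Msh6, the MutLα gene Pms2 and the exonuclease gene Exo1. The changes ran from -7.66% for Msh6 to -21.9% for Ung. Valemetostat lowered Ung, Msh6, Pms2 and Exo1 too, with changes from -10.5% for Msh6 to -16.7% for Ung. The endonuclease genes Apex1 and Apex2 and the second uracil glycosylase gene, Smug1, were not called with either drug, and no member was called higher. In a bulk library, fewer cells expressing a gene and less RNA per cell cannot be told apart.

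These counts have to be read against a wide response of the transcriptome. With tazemetostat, 38.1% of the 12580 tested genes were called, 18.2% lower and 19.9% higher, against 4 members lower and 0 higher. With valemetostat, 39.2% were called, 18.7% lower and 20.5% higher, again against 4 members lower and 0 higher. The count of 0 members higher was the same at an unadjusted p under 0.05 and by DESeq2 and limma. The median log2 difference over the 7 members was -0.23 with tazemetostat and -0.16 with valemetostat, and over all tested genes it was 0.00079 and 0.0073. On the authors' TPM scale, the calls over all genes leaned to the lower side and not, as on counts, to the higher side. There, 1177 were higher and 1946 lower for tazemetostat, and 1191 higher and 2117 lower for valemetostat. The median log2 difference over all tested genes on that scale was -0.068 with tazemetostat and -0.067 with valemetostat. Differences given below on the TPM scale include this shift. The DMSO libraries served both comparisons, so the second set of 4 is no independent repeat of the first.

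**Figure D1:**
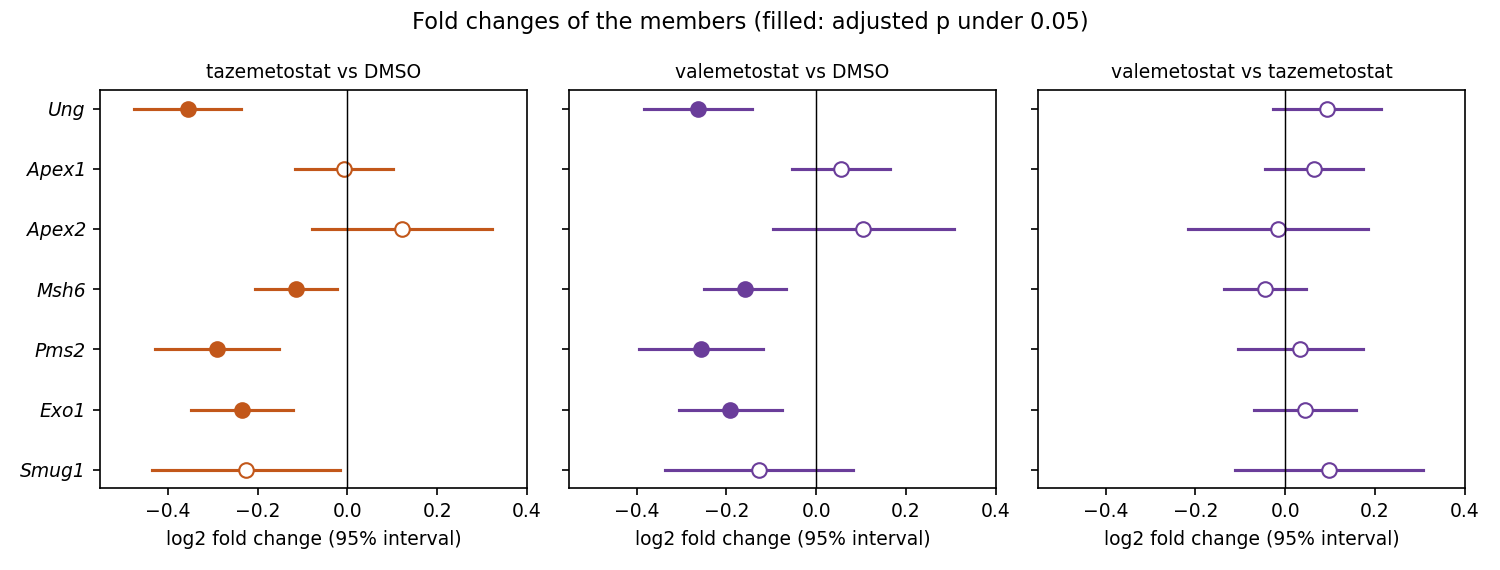
Log2 difference from DMSO (inhibitor minus DMSO, edgeR) of each member with tazemetostat and valemetostat, with 95% confidence intervals, and valemetostat minus tazemetostat in the panel on the right; the line at 0 is no difference and filled points were called. Ung, Msh6, Pms2 and Exo1 lie below 0 with both drugs, and the intervals of Apex1 and Apex2 include 0 in every panel.

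Ung encodes the main uracil-DNA glycosylase of switching B cells. It had 52.8, 54.1 and 56.1 CPM with tazemetostat, 58.5, 56.7 and 58.4 CPM with valemetostat, and 74.6, 66.0 and 67.6 CPM with DMSO. Every library of either inhibitor lay below every DMSO library, and the tazemetostat and valemetostat libraries did not overlap each other. The log2 difference from DMSO was -0.36 ± 0.06 with tazemetostat (SE, n = 3 each, adjusted p = 2.38e-05) and -0.26 ± 0.06 with valemetostat (adjusted p = 0.000709). Ung kept its call in all 16 alternative analyses of each comparison, with log2 differences from -0.39 to -0.27 for tazemetostat and from -0.30 to -0.21 for valemetostat.

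Smug1 encodes a glycosylase that can also remove uracil and acts as a backup to UNG. It had 12.5, 11.3 and 11.6 CPM with tazemetostat, 11.5, 13.7 and 12.9 CPM with valemetostat, and 13.3, 14.6 and 13.7 CPM with DMSO. All tazemetostat libraries lay below all DMSO libraries, whereas the valemetostat and DMSO libraries overlapped. The log2 difference was -0.23 ± 0.10 with tazemetostat (95% interval -0.43 to -0.02, adjusted p = 0.083) and -0.13 ± 0.10 with valemetostat (-0.34 to 0.08, adjusted p = 0.341). Smug1 passed the threshold with neither drug. On the TPM scale the differences were -0.44 (adjusted p = 0.14) and -0.34 (adjusted p = 0.243), and without valemetostat replicate 1 the valemetostat difference was -0.06 (adjusted p = 0.738). At 412 to 631 counts per library, it and Apex2 had the widest intervals of the 7.

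The abasic site left by a glycosylase is cut by an AP endonuclease, and APEX1 is the major one in mammalian cells. Apex1 had 232, 230.2 and 257 CPM with tazemetostat, 251, 270.5 and 229 CPM with valemetostat, and 247, 236 and 239.9 CPM with DMSO. The 3 groups overlapped throughout. Its log2 difference was -0.01 ± 0.05 with tazemetostat (95% interval -0.12 to 0.10, adjusted p = 0.924) and 0.06 ± 0.05 with valemetostat (-0.05 to 0.17, adjusted p = 0.438). In the fit with an offset for transcript length and GC content, Apex1 was called lower with tazemetostat (-0.13, adjusted p = 0.0156). Its difference with valemetostat was -0.09 (adjusted p = 0.104) with that offset, so the sign with valemetostat depends on the scaling. On the TPM scale the valemetostat difference of Apex1 was -0.07, close to the median of -0.07 over all tested genes on that scale. The annotated exons of Apex1 share 877 of their 1422 bases with Pip4p1, a gene on the other strand, and the sources used here do not say whether the authors' counting used strand. Pip4p1 had 36.0, 33.8 and 35.5 CPM with tazemetostat, 39.7, 39.3 and 36.1 CPM with valemetostat, and 44.0, 40.6 and 41.6 CPM with DMSO, with log2 differences of -0.26 (adjusted p = 0.00223) and -0.13 (adjusted p = 0.106), and its part in the Apex1 counts was not tested.

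APEX2 is the second AP endonuclease and has a weaker cutting activity, and in mouse B cells it is found mostly in proliferating germinal centre cells. Apex2 had 15.6, 13.6 and 13.7 CPM with tazemetostat, 14.9, 14.4 and 13.2 CPM with valemetostat, and 12.9, 12.8 and 13.8 CPM with DMSO. The groups overlapped. The log2 difference was 0.12 ± 0.10 with tazemetostat (95% interval -0.08 to 0.32, adjusted p = 0.352) and 0.11 ± 0.10 with valemetostat (-0.10 to 0.31, adjusted p = 0.425).

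MSH6 is the subunit of MutSα that contacts the mismatch. Msh6 had 147, 141 and 150.5 CPM with tazemetostat, 144, 139.99 and 141 CPM with valemetostat, and 158, 161.5 and 155 CPM with DMSO. All inhibitor libraries lay below all DMSO libraries, by a margin of a few CPM at the nearest pair. The log2 difference was -0.11 ± 0.04 with tazemetostat (adjusted p = 0.0426) and -0.16 ± 0.04 with valemetostat (adjusted p = 0.00558). The tazemetostat call was lost in 9 of 16 alternatives, among them leaving out DMSO replicate 1 (adjusted p = 0.076), DMSO replicate 2 (0.139), tazemetostat replicate 1 (0.0822) or tazemetostat replicate 2 (0.196), and the difference was -0.19 on the TPM scale. The valemetostat call held in all 16, with adjusted p up to 0.0323.

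PMS2 carries the endonuclease activity of MutLα. Pms2 had 35.2, 37.3 and 40.4 CPM with tazemetostat, 41.0, 38.2 and 36.3 CPM with valemetostat, and 44.6, 46.6 and 46.8 CPM with DMSO. No inhibitor library reached the lowest DMSO library. The log2 difference was -0.29 ± 0.07 with tazemetostat (adjusted p = 0.00123) and -0.26 ± 0.07 with valemetostat (adjusted p = 0.00347). On the authors' TPM scale the difference had the same sign and was not called, at -0.34 (adjusted p = 0.199) with tazemetostat and -0.25 (adjusted p = 0.331) with valemetostat. Per library, Pms2 had 24.3, 15.9 and 20.6 TPM with tazemetostat, 27.1, 17.0 and 20.7 TPM with valemetostat, and 24.3, 29.9 and 22.9 TPM with DMSO, so on that scale the groups overlapped.

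EXO1 removes the strand that holds the mismatch. Exo1 had 64.2, 67.0 and 64.1 CPM with tazemetostat, 70.5, 67.0 and 64.0 CPM with valemetostat, and 74.8, 80.6 and 74.6 CPM with DMSO. Every inhibitor library lay below every DMSO library. The log2 difference was -0.24 ± 0.06 with tazemetostat (adjusted p = 0.00141) and -0.19 ± 0.06 with valemetostat (adjusted p = 0.0073). With the length and GC offset, the tazemetostat difference was -0.12 (adjusted p = 0.0467) and the valemetostat difference was -0.05 (adjusted p = 0.501). On the TPM scale they were -0.44 (adjusted p = 0.0386) and -0.22 (adjusted p = 0.24), and without DMSO replicate 2 the valemetostat difference was -0.15 (adjusted p = 0.0561).

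**Figure D2:**
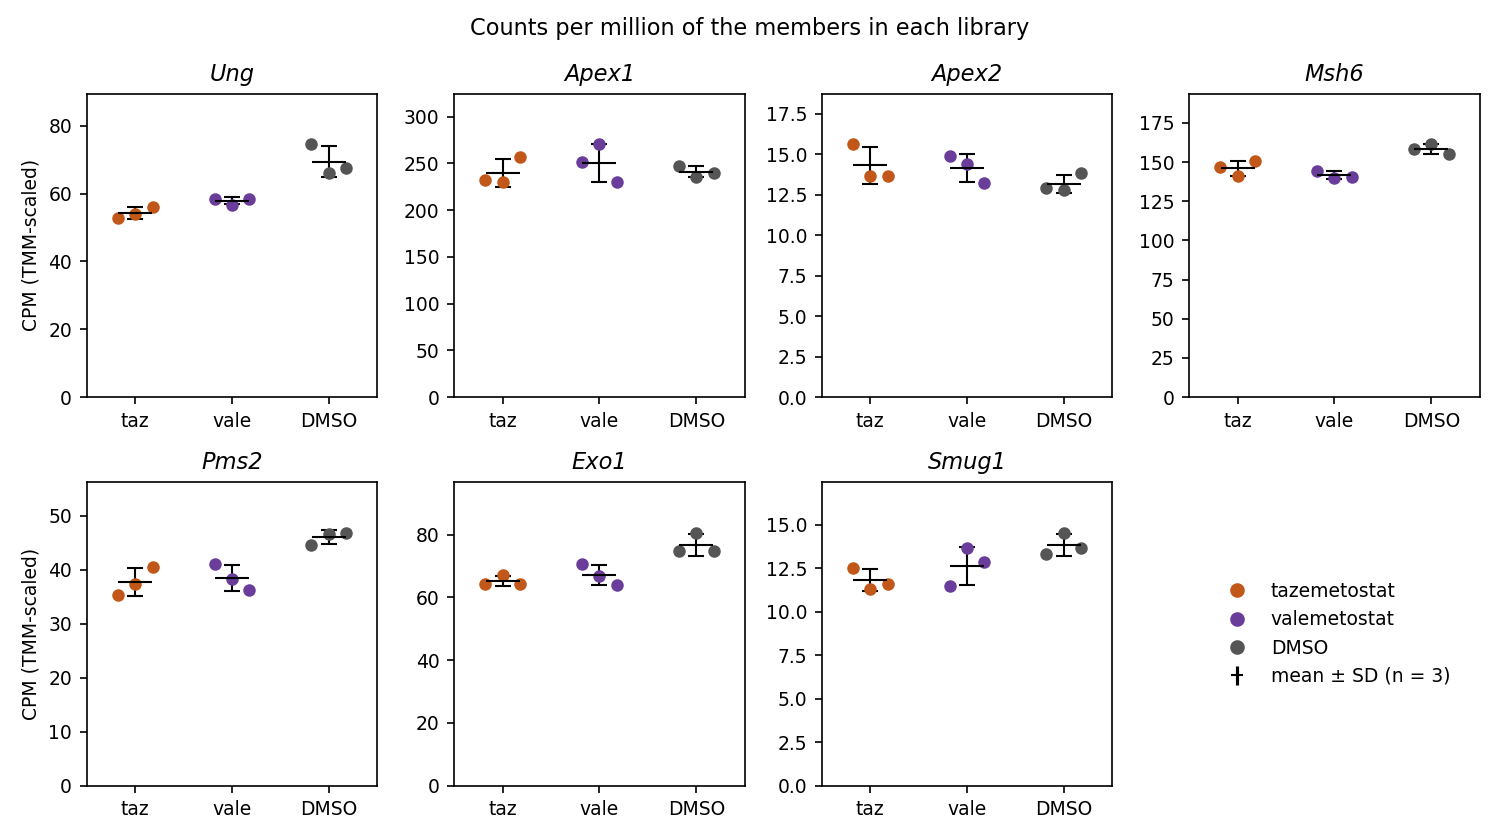
CPM of each member in each library, with one panel per gene and the columns taz (tazemetostat), vale (valemetostat) and DMSO; points are libraries and bars are the mean and SD of 3 libraries. The inhibitor points of Ung, Msh6, Pms2 and Exo1 lie below the DMSO points, while those of Apex1 and Apex2 overlap them; the axes start at 0.

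Counting libraries in place of calls gave a similar picture. With tazemetostat, 5 of the 7 members (Ung, Msh6, Pms2, Exo1 and Smug1) had all 3 inhibitor libraries below all 3 DMSO libraries, against 23.3% of all tested genes. With valemetostat, 4 of the 7 did, against 23.7%. Over the 9 libraries, the log2 CPM of the 4 called genes correlated pairwise at r of 0.77 (Ung with Msh6) to 0.90 (Pms2 with Exo1). Apex1 correlated with the other members at -0.09 to 0.17, and Apex2 with the members other than Apex1 at -0.64 to -0.38. These correlations include the difference between the groups, since the same 9 libraries hold all 3. The 4 called genes were picked as lower with both inhibitors in these libraries, so positive correlations among them follow in part from that choice.

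The inhibitors were then set against each other at the same time of stimulation. No member was called between valemetostat and tazemetostat, and at an unadjusted p under 0.05, by DESeq2 or by limma the count was also 0. Of all tested genes, 0.318% were called, 0.254% lower and 0.0636% higher with valemetostat. For Ung, whose valemetostat libraries (56.7 to 58.5 CPM) all lay above its tazemetostat libraries (52.8 to 56.1 CPM), the log2 difference was 0.09, with a 95% interval of -0.03 to 0.21 and an adjusted p of 0.746. The interval was -0.05 to 0.17 for Apex1, -0.22 to 0.18 for Apex2, -0.14 to 0.05 for Msh6, -0.11 to 0.17 for Pms2, -0.07 to 0.16 for Exo1 and -0.11 to 0.31 for Smug1. The 7 comparisons between the drugs thus left room for differences of up to about 0.31 on the log2 scale in the widest interval, and they do not show that the drugs act alike. Whether the drugs were given at the same dose is not stated in the labels.

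Levels between genes were compared in TPM, which is scaled to transcript length. Apex1 was the most abundant member in all groups, at 322.6 ± 12.7 TPM with tazemetostat, 333.6 ± 23.0 TPM with valemetostat and 348.9 ± 10.6 TPM with DMSO (SD, n = 3 each). Ung, Msh6 and Exo1 formed the next tier. Ung had 43.2 ± 2.14 TPM with tazemetostat, 43.3 ± 5.09 TPM with valemetostat and 52.3 ± 2.10 TPM with DMSO. Msh6 had 44.1 ± 0.971, 42.7 ± 1.37 and 50.5 ± 2.66 TPM in the same groups, and Exo1 had 41.6 ± 7.43, 48.1 ± 6.40 and 56.1 ± 4.33 TPM. Within each group the ranges of these 3 genes overlapped. Compared within each library, all 3 DMSO libraries had Exo1 highest (58.4, 58.8 and 51.1 TPM), then Ung (53.2, 53.8 and 49.9), then Msh6 (50.2, 53.3 and 48.0). With either inhibitor the order of these genes varied from library to library.

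Pms2 lay below that tier, at 20.3 ± 4.18 TPM with tazemetostat, 21.6 ± 5.11 TPM with valemetostat and 25.7 ± 3.71 TPM with DMSO. Apex2 had 9.43 ± 1.25 TPM with tazemetostat, 9.30 ± 0.569 TPM with valemetostat and 8.78 ± 0.560 TPM with DMSO, and Smug1 had 6.43 ± 0.931, 6.99 ± 1.30 and 9.31 ± 3.14 TPM. Apex2 and Smug1 overlapped in DMSO, and with either inhibitor every Apex2 library lay above every Smug1 library.

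In the glycosylase pair and in the AP endonuclease pair, 1 gene had the higher RNA level in every library. The ratio of Ung to Smug1 TPM was 5.45, 7.78 and 7.26 with tazemetostat, 7.73, 5.55 and 5.67 with valemetostat, and 6.22, 4.21 and 7.55 with DMSO, so the groups overlapped. The ratio of Apex1 to Apex2 TPM was 29.3, 36.1 and 38.4 with tazemetostat, 35.3, 36.7 and 35.6 with valemetostat, and 43.8, 39.3 and 36.6 with DMSO. The groups overlapped here too, with 1 tazemetostat and 1 valemetostat library above the lowest DMSO library.

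**Figure D3:**
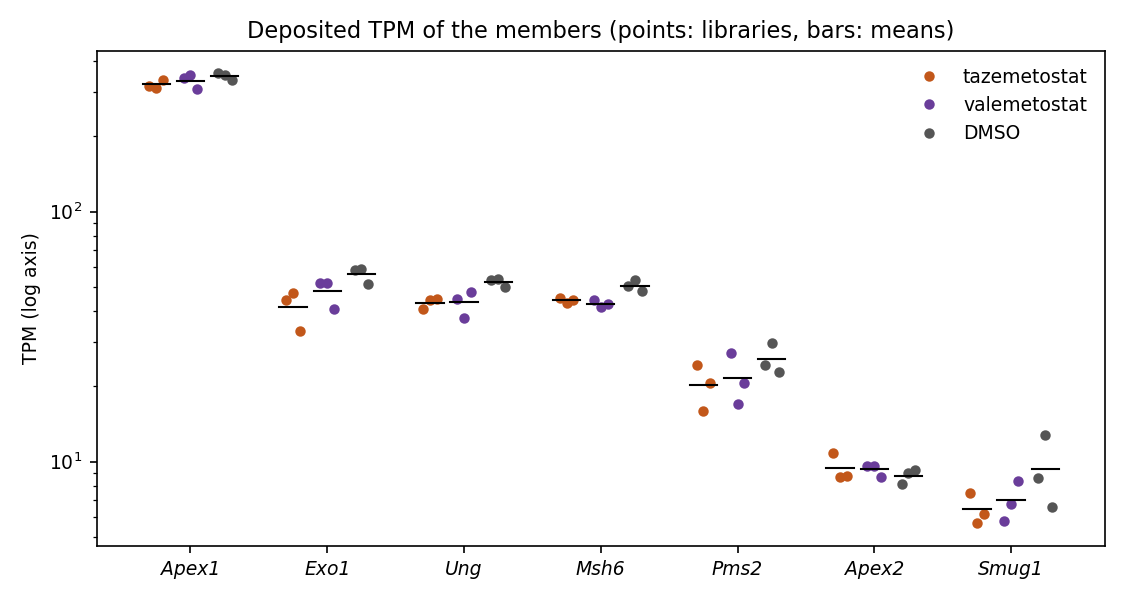
TPM of the 7 members on a log axis with tazemetostat, valemetostat and DMSO, from the authors' deposited log2 values; points are libraries and bars are means of 3. Apex1 stands above the others, Ung, Msh6 and Exo1 overlap, Pms2 is below them, and Apex2 and Smug1 are lowest.

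The authors' counts and TPM do not track each other equally well for all members. For each gene the CPM was divided by the TPM in each library, and the highest of the 9 ratios was divided by the lowest. This spread was 1.81 for Smug1, 1.61 for Pms2 and 1.51 for Exo1, against a median of 1.16 over 8970 genes with a mean of at least 5 TPM. It was wider than in 97.9%, 95.7% and 93.5% of these genes for Smug1, Pms2 and Exo1. For Ung it was 1.23, for Apex1 1.15, for Msh6 1.13 and for Apex2 1.11. The calls lost on the TPM scale, those of Pms2 with both drugs and of Exo1 with valemetostat, belong to genes with this wide spread, and the cause of the spread was not tested.

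Transcript length moved with the inhibitor effect in these libraries, and its trend also varied between libraries of a group. Taken per library, the correlation with transcript length was 0.30, 0.51 and 0.22 with DMSO. It was -0.03, -0.01 and -0.46 with tazemetostat, and -0.27, -0.48 and -0.24 with valemetostat. Over 8837 genes that differed from DMSO by less than 2-fold with each drug, the Spearman correlation of the log2 difference from DMSO with transcript length was -0.37 for tazemetostat and -0.43 for valemetostat, given here as a description across genes. The called members spanned 2136 nt (Ung), 4251 nt (Msh6), 5482 nt (Pms2) and 7796 nt (Exo1), against a median of 2989.5 nt over the tested genes, and the members that were not called spanned 1239 nt (Apex1), 3882 nt (Smug1) and 4742 nt (Apex2). With a per-library offset for length and GC content, the Ung, Msh6 and Pms2 calls remained with both drugs, and the Exo1 difference with valemetostat did not pass the threshold, as given above. Whether the dependence on length comes from the RNA or from library preparation was not tested.

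**Figure D4:**
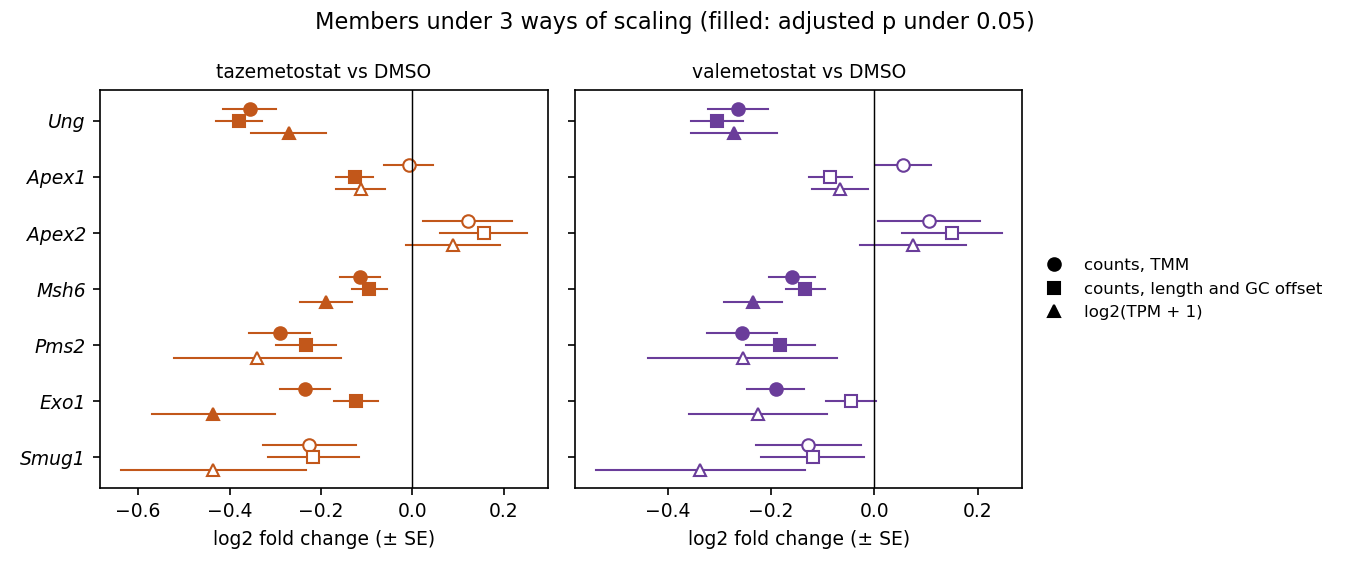
Log2 difference from DMSO of each member from TMM-scaled counts, from counts with the length and GC offset and from log2(TPM + 1), with standard errors, for tazemetostat (left) and valemetostat (right); filled points were called. Ung is called and below 0 in all 6 cases, and Exo1 with valemetostat comes closest to 0 under the length and GC offset, at -0.05.

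Of 22 other genes of base excision repair, 20 were tested, and with each inhibitor 1 was called higher and 3 lower, against 38.1% and 39.2% of all tested genes called in either direction, with a median log2 difference of -0.08 for tazemetostat and -0.05 for valemetostat. The 4 called became 8 with tazemetostat on the TPM scale or with the length and GC offset, and 7 with valemetostat with that offset. The gene called higher was Dut, whose dUTPase keeps uracil out of newly made DNA: it averaged 177 ± 8.22 CPM with tazemetostat, 180.1 ± 3.18 CPM with valemetostat and 132 ± 8.69 CPM with DMSO (SD, n = 3 each). Its log2 difference was 0.42 ± 0.05 with tazemetostat (adjusted p = 2.13e-07) and 0.45 ± 0.05 with valemetostat (adjusted p = 8.11e-08). Xrcc1, the scaffold that brings polymerase and ligase to the cut strand, averaged 97.6 ± 1.31 CPM with tazemetostat, 102 ± 5.04 CPM with valemetostat and 123 ± 5.51 CPM with DMSO. Its log2 difference was -0.33 ± 0.05 with tazemetostat (adjusted p = 1.03e-05) and -0.27 ± 0.05 with valemetostat (adjusted p = 0.000109).

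Parp1, the sensor of strand breaks, differed by -0.15 ± 0.04 on the log2 scale with each drug (adjusted p = 0.00583 with tazemetostat and 0.00392 with valemetostat), and by -0.23 and -0.25 on the TPM scale. The remaining gene called lower, named here after its values were seen, was the 8-oxoguanine glycosylase gene Ogg1 with tazemetostat (-0.33 ± 0.12, adjusted p = 0.0304) and the ligase gene Lig3 with valemetostat (-0.14 ± 0.05, adjusted p = 0.0228). The Ogg1 call was lost without DMSO replicate 3 (-0.20, adjusted p = 0.202) or tazemetostat replicate 2 (-0.19, adjusted p = 0.222). The Lig3 call was lost without DMSO replicate 2 (adjusted p = 0.142), valemetostat replicate 2 (0.0687) or valemetostat replicate 3 (0.0626), and with the length and GC offset (-0.05, adjusted p = 0.415). On the TPM scale the Lig3 difference was larger, at -0.32 (adjusted p = 0.0027) with valemetostat, and it was called with tazemetostat too (-0.28, adjusted p = 0.00615). Fam72a, an antagonist of UNG protein in B cells, had log2 differences of -0.07 and 0.09 and was not called.

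Among 27 other genes of mismatch repair and gap filling, 3 were called higher and 10 lower with each inhibitor, where 19.9% and 20.5% of all tested genes were called higher and 18.2% and 18.7% lower, with a median of -0.06 for tazemetostat and -0.04 for valemetostat. Pole, the catalytic subunit of polymerase ε, differed by -0.41 ± 0.05 with tazemetostat (adjusted p = 1.68e-07) and by -0.53 ± 0.05 with valemetostat (adjusted p = 2.15e-09). Rfc1, the large subunit of the PCNA clamp loader, differed by -0.27 and -0.30, and Usp1, which removes ubiquitin from PCNA, by -0.17 and -0.27 (-0.56 and -0.60 on the TPM scale). Pold4, the small subunit of polymerase δ, moved the other way: it averaged 45.9 ± 1.38 CPM with tazemetostat, 48.2 ± 4.75 CPM with valemetostat and 27.8 ± 2.57 CPM with DMSO, a log2 difference of 0.73 ± 0.08 (adjusted p = 2.92e-08) and 0.79 ± 0.08 (adjusted p = 6.16e-09).

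Ung and the mismatch repair genes are expressed most in proliferating cells, so 25 genes of S phase and proliferation were placed beside them. With tazemetostat 3 were called higher and 9 lower, and with valemetostat 5 were called higher and 8 lower, with medians of -0.05 and -0.08. Those are 12 and 13 of 25 genes, where 38.1% and 39.2% of all tested genes were called. Mki67, which marks cycling cells, differed by -0.39 ± 0.05 with tazemetostat (adjusted p = 8.5e-07, and -0.24 with the length and GC offset) and by -0.61 ± 0.05 with valemetostat (adjusted p = 4e-10). The helicase genes Mcm6 and Mcm10 differed by -0.19 and -0.26 with tazemetostat and by -0.22 and -0.19 with valemetostat, and E2f8, a repressor made in S phase, by 0.67 and 0.74. Cell cycle genes thus moved in both directions, and their part in the members' difference was not tested. Summed TPM of 4 plasma cell markers (Prdm1, Sdc1, Xbp1 and Irf4) was 189 to 196 with tazemetostat, 200.2 to 208 with valemetostat and 217 to 235 with DMSO, and its part was not tested either. Between the drugs, 0 genes of these 3 lists were called by edgeR, while at an unadjusted p under 0.05 the lists held 1, 1 and 2 genes and DESeq2 called 1, Mki67, lower with valemetostat.

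**Figure D5:**
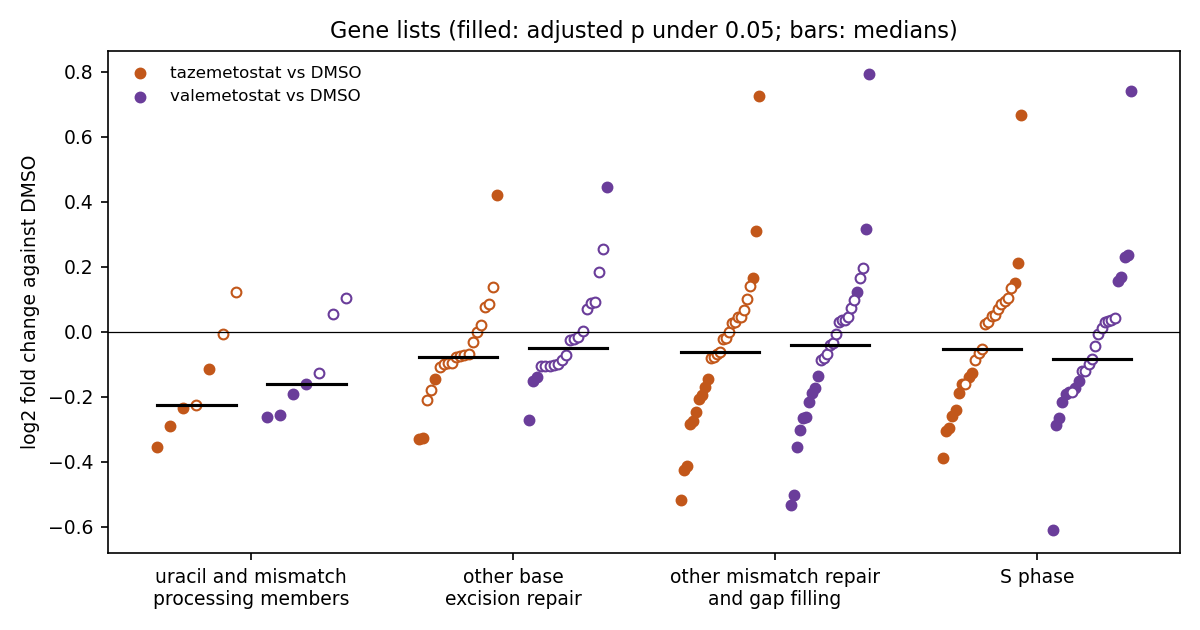
Log2 difference from DMSO of every tested gene of the members and the 3 other lists, for tazemetostat and valemetostat; each point is a gene, filled where called, and the bar is the list's median. The member medians are -0.23 and -0.16, and the other medians lie between -0.08 and -0.04.

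Genes whose log2 CPM over the 9 libraries followed the called members most closely were sought among 8777 genes, and the 2 with the highest Pearson r are named for each. For Ung these were Man1b1 (r = 0.995), an ER mannosidase gene, and Irag2 (0.982). For Msh6 they were Rnf20 (0.974), which encodes a histone H2B ubiquitin ligase, and Usp19 (0.967), a deubiquitinase gene. For Pms2 they were Atp13a1 (0.986) and Orc1 (0.984), a subunit of the origin recognition complex. For Exo1 they were Wdhd1 (0.985), a replisome gene, and Xpnpep3 (0.984). All these values share the same 9 libraries and the difference between their groups.

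Some reads of the members could belong to neighbours. The annotated exons of Pms2 share 394 bases with Gm42421, which had 23 counts over the 9 libraries, and those of Apex2 share 311 bases with Alas2, which had 17. A processed pseudogene of Msh6, Gm11855, is 94.1% identical over 1872 nt and had 2 counts in all. These low counts depend on how the authors' counting assigned shared reads, which is unknown here.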

How the data were processed

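The authors deposited whole-number counts per gene and library and log2(TPM + 1) values, with TPM rounded to hundredths, for 9 poly(A) RNA-seq libraries, per the labels. The log2 base was checked on the values: 100% of them return TPM in whole hundredths (tolerance 1e-06). The submitters' processing notes name mm9 as the build; no aligner, counter, annotation or strand setting is named in the sources used here. Counts were tested with edgeR 4.0.16 in R 4.3.3 (TMM scaling, robust quasi-likelihood F test, filterByExpr with a minimum count of 10 and total of 15, 9 libraries in 1 fit). Calls were made at an adjusted p (Benjamini-Hochberg) under 0.05, and confidence intervals are 95%. The edgeR procedure was tested on simulated data for tazemetostat against DMSO. It called 60% of 50 genes set to a log2 difference of -0.3 and 50% of 50 set to 0.3. At -1 and 1 it called 90% and 94%, and of the unchanged genes 0.024%. Far fewer genes were changed in the simulation than were called in these data. Alternatives used DESeq2 1.42.0, limma 3.58.1 on the log2 values, other scalings, filters and library subsets, and an offset on transcript length and GC content. Lengths, GC content and exon overlaps came from GENCODE M21, another build than the files', and promoters from RefSeq. The confidence intervals come from the fit and include the spread between libraries of a group, while the floor of 3 counts covers counting error only. The members and gene lists were chosen with earlier results of these data known. Named list genes were those called with both inhibitors, ranked by p, up to 4 per list. Ogg1, Lig3 and Fam72a were named outside this rule. The genes nearest in pattern to each called member were the 2 with the highest Pearson r among genes with a mean log2 CPM of at least 3. Some genes of the pathway are not reported here.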

Additional observations from a re-analysis of the deposited data

How the results depend on the processing

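Each comparison was recomputed under 16 alternatives, and no called difference of a member or named list gene changed sign. Over the 7 members and 3 comparisons, 318 of 336 alternative values kept their side of the threshold, 16 lost the call and 2 gained one. The members called with tazemetostat numbered 3 to 5 and those called with valemetostat 2 to 4, the 2 being on the log2(TPM + 1) scale. Over all tested genes, 3123 were called with tazemetostat on the log2(TPM + 1) scale, against 4794 on counts. For valemetostat against tazemetostat, 40 genes were called, against 75 by DESeq2, 93 with no filter, 81 with the length and GC offset, 1 on the log2(TPM + 1) scale and between 9 and 75 when a library was left out (10 without tazemetostat replicate 1, 20 without 2 and 75 without 3, and 11 without valemetostat replicate 1 and 9 without 2). Of the other base excision repair genes, 4 were called with each inhibitor, against 8 with tazemetostat on the log2(TPM + 1) scale and 8 with tazemetostat and 7 with valemetostat under the length and GC offset. One S phase gene was called between the inhibitors under 8 alternatives and 0 in the remaining 8. The cause was not tested. Same-numbered libraries showed little likeness, with correlations of their deviations from -0.04 to 0.08. Of 6 libraries, 4 matched their own number best for tazemetostat against DMSO, 0 for valemetostat against DMSO and 2 between the drugs. The labels do not say what a replicate number shares, and these values cannot decide whether the libraries are paired. With the replicate block, 3 members were called with tazemetostat, Msh6 being lost (adjusted p = 0.0676), 4 with valemetostat and 0 between the drugs. With the length and GC offset and the replicate block together, the tazemetostat calls of Msh6 (adjusted p = 0.0686) and Exo1 (-0.12, adjusted p = 0.0636) were lost. With 3 libraries a group, the widest intervals were those of Smug1 and Apex2, the members with the fewest counts.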
